A study of Mus musculus with 6 samples.

Results

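Complement genes were followed through mouse neurofibromas, which are benign nerve sheath tumours, with and without the microRNA miR-155. The set holds 9 genes of 24421 in the count table, taken by symbol: the C1q chains C1qa, C1qb and C1qc, the components C2, C3 and C4b, the protease Cfb, and the anaphylatoxin receptors C3ar1 and C5ar1. The compared groups were 3 tumours labelled miR-155KONf1KO (MiRNC149, MiRNC640 and MiRNC670, genotype given as Mir-155 KO) and 3 labelled Nf1KO (Nf803, Nf809 and Nf827, genotype given as Nf1 -/-). All 6 came from Nf1fl/fl; DhhCre mice on a C57BL/6J background, and no drug was given. The Dhh promoter drives Cre in the Schwann cell lineage, so Nf1, which encodes a brake on Ras, is removed in that lineage and remains in other cells of the tumour, macrophages included. Neither the age of the mice nor the cells that lack miR-155 are given in the labels. The study stated that it looked for potential miR-155 targets among expression differences.

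Complement is a cascade of plasma and tissue proteins. C1q binds antibody complexes or cell debris, and its proteases cut C4 and C2 into an enzyme that splits C3. An alternative route splits C3 with factor B, the product of Cfb. The fragments C3a and C5a call in leukocytes through C3ar1 and C5ar1. The liver makes most plasma complement, whereas C1q comes largely from macrophages and dendritic cells, and fibroblasts, adipocytes and glia also make several components. In peripheral nerve, complement and macrophages take part in the clearance of myelin after injury.

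Totals ran from 13061129 to 16333181 reads a tumour. Mir155hg, the transcript that carries miR-155, had 5, 3 and 1 reads in MiRNC149, MiRNC640 and MiRNC670, against 57, 66 and 71 in Nf803, Nf809 and Nf827, which fits the labels. Schwann cell markers were present in every tumour, with Sox10 at a mean of 299 CPM (counts scaled to library size) in miR-155KONf1KO and 242 CPM in Nf1KO. The 5 hepatocyte markers together summed to 0.743 to 0.837 CPM in miR-155KONf1KO and 1.94 to 3.21 CPM in Nf1KO. Nf1 is targeted in both groups and was at 341 ± 43.3 CPM in miR-155KONf1KO and 324 ± 33.2 CPM in Nf1KO (SD, n = 3 each). By reads of Xist and Y-linked genes, MiRNC149, Nf803 and Nf827 were female and MiRNC640, MiRNC670 and Nf809 were male. Each group thus held more than a single mouse, but whether each tumour came from its own mouse is not in the labels. The p-values below therefore rest on the variation among these samples, part of which may be technical.

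The start regions of members whose levels are described below are shown because C1qb, C1qc and C3ar1 were low in the same tumours and C3 was not. Each window runs 5′ to 3′ from 250 bases before to 50 bases after the annotated start, on the RefSeq tables of GRCm38.p6, which hold a window for 5 of the 9 genes. Capitals mark the core GAGGAA bound by PU.1 and other ETS factors, which reads TTCCTC where it lies on the other strand. They also mark the TATA box motif TATAAA, added after the sequences were seen, on either strand.
C1qb, chr4:136886151-136886450, minus strand: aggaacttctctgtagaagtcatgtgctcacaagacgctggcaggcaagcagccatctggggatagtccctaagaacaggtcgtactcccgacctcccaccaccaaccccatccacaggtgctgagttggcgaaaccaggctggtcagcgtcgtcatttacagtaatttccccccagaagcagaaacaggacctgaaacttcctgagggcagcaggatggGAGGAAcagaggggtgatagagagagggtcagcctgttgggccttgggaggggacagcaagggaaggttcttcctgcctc
C1qc, chr4:136892865-136893164, minus strand: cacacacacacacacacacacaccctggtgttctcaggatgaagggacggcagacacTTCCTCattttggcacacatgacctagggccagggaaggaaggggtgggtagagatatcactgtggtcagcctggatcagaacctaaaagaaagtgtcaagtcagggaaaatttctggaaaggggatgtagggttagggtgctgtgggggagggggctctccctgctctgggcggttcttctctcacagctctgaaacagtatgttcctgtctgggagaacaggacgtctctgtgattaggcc
C3ar1, chr6:122856108-122856407, minus strand: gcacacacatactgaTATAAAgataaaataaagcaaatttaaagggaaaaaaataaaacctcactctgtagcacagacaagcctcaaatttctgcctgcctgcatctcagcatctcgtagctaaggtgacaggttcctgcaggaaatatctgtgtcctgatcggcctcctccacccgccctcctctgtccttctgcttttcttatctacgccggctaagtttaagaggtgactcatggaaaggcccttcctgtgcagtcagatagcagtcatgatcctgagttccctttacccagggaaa
C3, chr17:57228087-57228386, minus strand: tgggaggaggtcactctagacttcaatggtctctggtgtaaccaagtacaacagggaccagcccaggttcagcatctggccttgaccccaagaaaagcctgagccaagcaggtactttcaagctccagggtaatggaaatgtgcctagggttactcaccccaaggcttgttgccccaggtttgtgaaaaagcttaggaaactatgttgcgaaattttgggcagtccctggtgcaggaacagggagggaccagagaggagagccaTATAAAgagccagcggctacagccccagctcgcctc
C1qb held GAGGAA 30 bases before the start and C1qc held it on the other strand 193 bases before. C3, C3ar1 and C5ar1 had no match. Of 32851 RefSeq windows of 300 bases, 28.28% hold this core on either strand, beside 2 of these 5. TATAAA was found in C3 and C3ar1 and in 13.62% of windows, on either strand. In C3 it lay 15 bases after the annotated start, and in C3ar1 near the upstream end of the window. Whether either match acts as a TATA box was not tested. None of these 5 windows held the STAT element TTCNNNGAA, which 8.3% of windows hold on either strand, the interferon-stimulated response element (3.44%) or the NF-kB element (0.41%), and no motifs overlapped in the windows printed.

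Mature miR-155 is shown because its targets were the stated aim of the comparison, with its seed, bases 2 to 8, in capitals.
mmu-miR-155-5p, chr16:84714143-84714165, plus strand: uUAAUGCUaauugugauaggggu
A target site here is AGCATTAA, or either of its 7-base parts AGCATTA and GCATTAA, in the longest annotated 3′ untranslated region of a gene. None of the 9 complement genes had a site, and 14.84% of the 14035 tested genes with such a region had one. The regions were short for C3 (43 bases), C1qb (160), C1qa (237), C1qc (239) and C2 (254), and longest for C3ar1 (2685). Of 37 further complement genes, 1 had a site, Mbl1, which encodes a mannose-binding lectin and had no read in any tumour.

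All 9 genes passed the filter on low counts, and all 9 had a negative log2 fold change in miR-155KONf1KO over Nf1KO. In the quasi-likelihood test of edgeR, with p-values adjusted by Benjamini-Hochberg over 15604 genes, C1qb and C3ar1 fell and the other 7 did not pass, where 4.74% of all tested genes were called lower and 9.96% were called in either direction. None of the 9 rose by edgeR, by DESeq2 or at an unadjusted p under 0.05. For 7 of the 9, all but C3 and Cfb, every miR-155KONf1KO tumour lay below every Nf1KO tumour, against 16.3% of all tested genes in that direction and 32.6% in either. The median log2 fold change of the 9 genes was -1.22, against 0.01 over all genes tested. In bulk tumours, fewer cells of a type and less RNA per cell cannot be told apart.

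**Figure D1:**
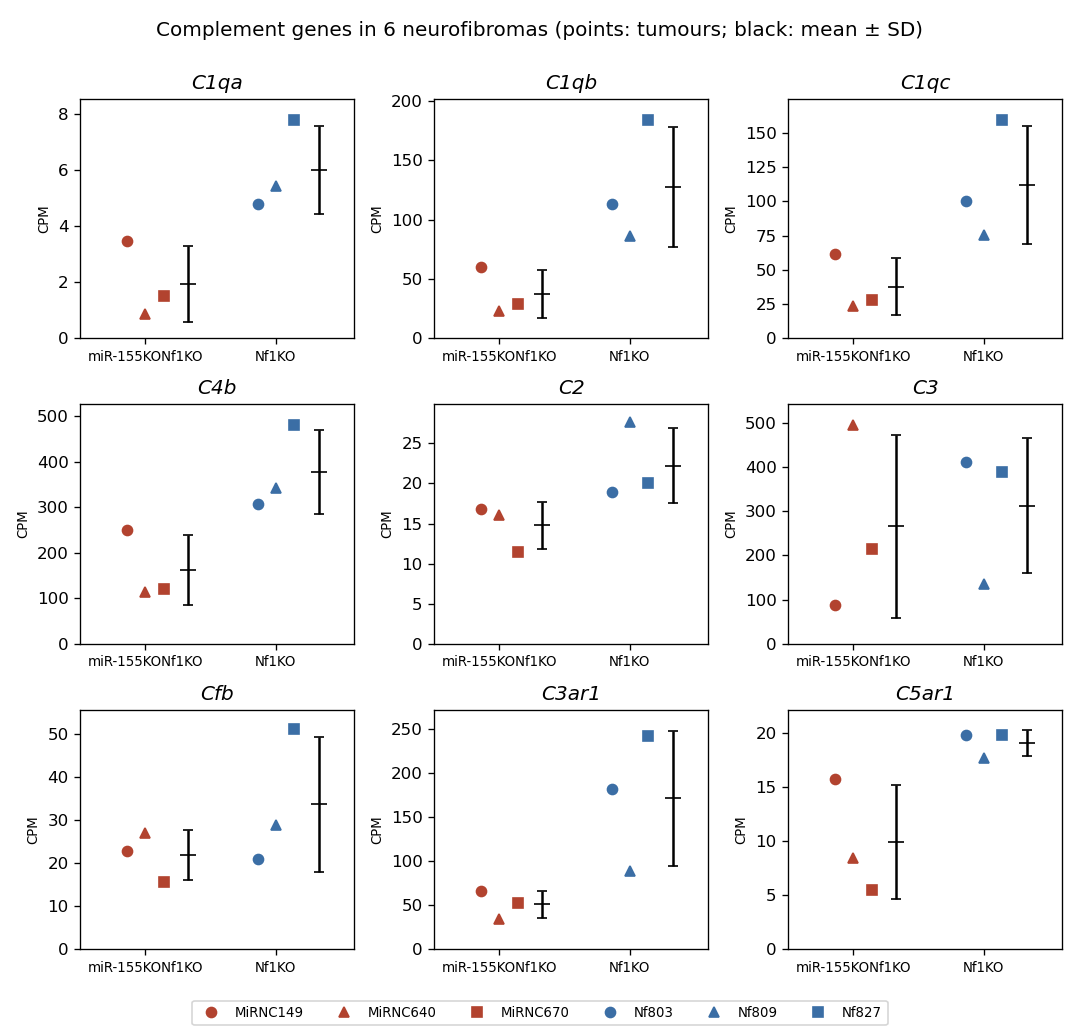
Level of each complement gene in CPM on a linear axis from 0, with miR-155KONf1KO tumours in red and Nf1KO tumours in blue; symbols stand for tumours and black bars for the mean and SD of 3 tumours. The groups are separate for C1qa, C1qb, C1qc, C4b, C2, C3ar1 and C5ar1 and overlap for C3 and Cfb.

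The C1q chains, encoded next to each other on chromosome 4, had Nf1KO means 3.07 (C1qa), 3.43 (C1qb) and 2.95 (C1qc) times those of miR-155KONf1KO, and C1qb passed the test. C1qb (136880129 to 136886187 on GRCm38, minus strand) was at 60.2, 22.7 and 28.8 CPM in MiRNC149, MiRNC640 and MiRNC670, against 113, 85.9 and 184 CPM in Nf803, Nf809 and Nf827. MiRNC149 was the highest of its group and Nf809 the lowest of its group, and the groups did not overlap. Within each group the female tumours thus had more C1qb than the male tumours. The same held for C1qc, C3ar1 and the summed macrophage markers below, and the part of sex in this order was not tested. The group means were 37.2 ± 20.1 CPM in miR-155KONf1KO and 128 ± 50.5 CPM in Nf1KO (SD, n = 3 each), with a log2 fold change of -1.78 (SE 0.43) and an edgeR Benjamini-Hochberg adjusted p of 0.0435. C1qc (136889804 to 136893065, minus strand) was at 61.8, 23.6 and 28.0 CPM in the miR-155KONf1KO tumours, in the same order, against 100.4, 75.2 and 159 CPM in the Nf1KO tumours. It gave the same order of tumours as C1qb, and its log2 fold change of -1.56 (SE 0.42) did not pass (edgeR adjusted p = 0.0611). C1qa (136895917 to 136898803, minus strand) had few reads, 54, 13 and 19 in the miR-155KONf1KO tumours against 66, 88 and 116 in the Nf1KO tumours. Its levels of 1.95 ± 1.36 CPM in miR-155KONf1KO and 6.00 ± 1.57 CPM in Nf1KO (SD, n = 3 each) did not overlap, and the log2 fold change of -1.61 (SE 0.53) did not pass (edgeR adjusted p = 0.104). The call of C1qb was lost without MiRNC640 (edgeR adjusted p = 0.111), MiRNC670 (0.151), Nf803 (0.111) or Nf827 (0.124), and without both MiRNC670 and Nf809 (0.0882), in which skeletal muscle markers summed to 2080 and 2241 CPM. Without that pair the log2 fold change of C1qb was -1.88, as large as with all 6 tumours. DESeq2 called all 3 chains with 6 tumours (adjusted p = 0.0272 for C1qa, 0.000177 for C1qb and 0.00132 for C1qc), where it called 16.3% of its genes.

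Macrophage markers moved with C1q. Of 18 macrophage markers, 9 fell by edgeR, among them Adgre1 and Csf1r, and the other 9 did not pass, with a median log2 fold change of -1.66, and Mertk was the 1 marker with a positive value. Their summed level was 548 to 1221 CPM in miR-155KONf1KO and 1319 to 2576 CPM in Nf1KO, with MiRNC149 highest of its group, MiRNC640 lowest of its group, and Nf809 the lowest Nf1KO tumour, which is the order of C1qb. Set against the mean of the macrophage list in the same tumour, the mean log2 level of the 3 C1q chains was -0.58 ± 0.19 in miR-155KONf1KO and -0.41 ± 0.20 in Nf1KO (SD, n = 3 each). That difference of -0.17 was smaller than the spread between tumours (exact permutation test, two-sided, p = 0.4 and 0.467 adjusted over 7 comparisons; 3 against 3 cannot go below 0.1). Against 7 pan-leukocyte genes in place of the macrophage list, the difference was 0.42, of the opposite sign. All 7 of those genes fell by edgeR, with a median log2 fold change of -2.20, and Laptm5, Cd53, Tyrobp and Fcer1g are in both lists.

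Of the anaphylatoxin receptors, C3ar1 passed the test and C5ar1 did not. C3ar1 (chromosome 6, 122847138 to 122856161, minus strand), the receptor for C3a on myeloid cells, was at 65.7, 34.1 and 52.0 CPM in MiRNC149, MiRNC640 and MiRNC670, against 182, 89.2 and 242 CPM in Nf803, Nf809 and Nf827. The groups did not overlap, although Nf809 was nearer to MiRNC149 than to the other Nf1KO tumours. C3ar1 fell to 50.6 ± 15.9 CPM in miR-155KONf1KO, against 171 ± 77.0 CPM in Nf1KO (SD, n = 3 each), a log2 fold change of -1.76 (SE 0.39; edgeR adjusted p = 0.0368). This call was lost without MiRNC640 (edgeR adjusted p = 0.0990), MiRNC670 (0.128), Nf803 (0.111) or Nf827 (0.103). C5ar1 (chromosome 7, 16246743 to 16259540, minus strand), the receptor for C5a on neutrophils and macrophages, was at 15.7, 8.44 and 5.47 CPM in the miR-155KONf1KO tumours, against 19.7, 17.6 and 19.8 CPM in the Nf1KO tumours. The Nf1KO tumours were close together and the miR-155KONf1KO tumours were spread over 2.87-fold. The log2 fold change of C5ar1 was -0.94 (SE 0.37, 95% interval -1.80 to -0.09), and it did not pass (edgeR adjusted p = 0.150). Neutrophil markers did not separate the groups, with summed levels of 15.3 to 65.8 CPM in miR-155KONf1KO and 40.8 to 156 CPM in Nf1KO, and 1 of 7 tested, Csf3r, fell. Relative to the macrophage list, C3ar1 differed by -0.13 and C5ar1 by 0.49 on the log2 scale (exact permutation test, two-sided, p = 0.7 and 0.2).

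C4b, the component that C1 cuts first, was at lower levels in every miR-155KONf1KO tumour and did not pass the test. The gene (chromosome 17, 34728380 to 34743882, minus strand) was at 249.9, 114 and 120.1 CPM in MiRNC149, MiRNC640 and MiRNC670, against 308, 342 and 481 CPM in Nf803, Nf809 and Nf827. The groups were separate, with means of 161 ± 76.8 CPM in miR-155KONf1KO and 377 ± 91.9 CPM in Nf1KO (SD, n = 3 each). C4b had an edgeR adjusted p of 0.0612 at a log2 fold change of -1.22 (SE 0.33), and a DESeq2 adjusted p of 0.00256. Without MiRNC149, the highest miR-155KONf1KO tumour, it became -1.68 and passed (edgeR adjusted p = 0.0185). Its close copy C4a, which had 10 to 19 reads in miR-155KONf1KO and 16 to 31 reads in Nf1KO, makes its count uncertain. Relative to the macrophage list, C4b stood at 2.98, 3.01 and 2.90 log2 units in MiRNC149, MiRNC640 and MiRNC670, a narrow range, against 2.38, 3.14 and 2.6 in Nf803, Nf809 and Nf827.

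C2, the partner of C4 in the enzyme, and Cfb, its counterpart in the alternative route, lie side by side on chromosome 17 and did not pass. C2 (34862604 to 34898265, minus strand) was at 16.8, 16.1 and 11.4 CPM in the miR-155KONf1KO tumours, against 18.9, 27.6 and 20.1 CPM in the Nf1KO tumours. The groups did not overlap but lay close, and the log2 fold change of -0.59 (SE 0.23, 95% interval -1.13 to -0.04) did not pass (edgeR adjusted p = 0.157). Cfb (34856374 to 34862518, minus strand) was at 22.9, 27.0 and 15.7 CPM in the miR-155KONf1KO tumours, against 21, 28.8 and 51.2 CPM in the Nf1KO tumours. The groups overlapped, Nf827 stood above the rest, and the log2 fold change of -0.62 (SE 0.36, 95% interval -1.46 to 0.21) did not pass (edgeR adjusted p = 0.317). GENCODE also annotates Gm20547 on the same strand, which shares 79.5% of the exon bases of Cfb and 42.8% of those of C2 and is not a row of the table, so how reads in these exons were assigned is uncertain. Interferon and inflammatory signals are known to induce both genes, and interferon response genes were lower in the same tumours: 5 of 12 fell by edgeR, the other 7 did not pass, and the summed level was 369 to 520 CPM in miR-155KONf1KO and 815 to 1795 CPM in Nf1KO, with Nf827 highest. Their part in the values of C2 and Cfb was not tested.

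C3, the component on which all routes meet, did not separate the groups. The gene (chromosome 17, 57203970 to 57228136, minus strand) was at 88.0, 494 and 215 CPM in MiRNC149, MiRNC640 and MiRNC670, against 411, 136 and 389 CPM in Nf803, Nf809 and Nf827. The highest and the lowest of the 6 tumours both belonged to miR-155KONf1KO, and C3 varied 5.61-fold within that group and 3.02-fold within Nf1KO. The means were 266 ± 208 CPM in miR-155KONf1KO and 312 ± 153 CPM in Nf1KO (SD, n = 3 each), and the log2 fold change of -0.23 (SE 0.63) had a 95% interval of -1.72 to 1.25, so that a change of more than 2-fold in either direction lies inside it (edgeR adjusted p = 0.856). Without MiRNC149 the log2 fold change was 0.20. MiRNC640 had the lowest C1qb and the highest C3 of the 6, whereas Nf809 had the lowest level of both within Nf1KO. C3 made up 15.1%, 66.7% and 45.0% of the reads of the 9 genes in MiRNC149, MiRNC640 and MiRNC670, against 34.9%, 16.8% and 25.0% in Nf803, Nf809 and Nf827.

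Adipocyte markers ran in the same order of tumours as C3 within each group. The summed level of 8 adipocyte markers was 133, 2374 and 663 CPM in MiRNC149, MiRNC640 and MiRNC670, against 367, 96.3 and 308 CPM in Nf803, Nf809 and Nf827. All 8 had positive log2 fold changes, with a median of 2.10. None of the 8 was called by edgeR, 1 of them, Plin4, had an unadjusted p under 0.05, and DESeq2 called 0 of the 8. Cfd, which encodes adipsin, the factor D that activates factor B and is made by fat cells, was at 16.9, 181 and 55.1 CPM in the miR-155KONf1KO tumours, against 39.3, 7.17 and 54.0 CPM in the Nf1KO tumours. Cfd was thus also highest in MiRNC640 and lowest in Nf809, and its log2 fold change of 1.33 (SE 0.93) did not pass (edgeR adjusted p = 0.414). The part of fat tissue in the level of C3 was not tested.

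**Figure D2:**
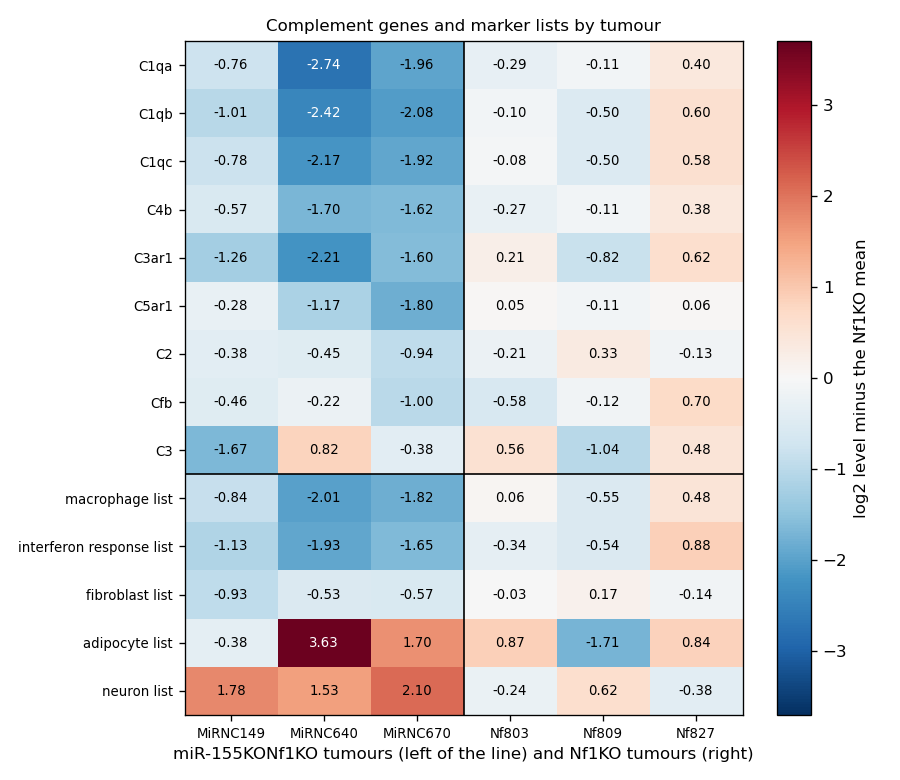
Log2 level of each complement gene, above the horizontal line, and mean log2 level of the tested genes of 5 marker lists, below it, in each tumour minus the Nf1KO mean; columns are tumours and colour follows the printed value. C1qb, C1qc and C3ar1 share their order of tumours within each group with the macrophage list, in which MiRNC149 is the highest miR-155KONf1KO tumour, while C3 is high in MiRNC640 and low in MiRNC149 and Nf809, as the adipocyte list is.

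Levels were compared between genes per length of exon, as CPM per kilobase (RPKM). In miR-155KONf1KO the order ran from C3 at 51.6 ± 40.4, C1qb at 34.2 ± 18.5, C4b at 28.3 ± 13.5, C1qc at 19.6 ± 10.8 and C3ar1 at 11.8 ± 3.68 RPKM down to Cfb at 7.74 ± 2.03, C5ar1 at 3.84 ± 2.05, C2 at 3.81 ± 0.757 and C1qa at 1.88 ± 1.3 RPKM (SD, n = 3). Neighbours in that order overlapped in their tumours. In Nf1KO the order was led by C1qb at 117 ± 46.4, C4b at 66.2 ± 16.1, C3 at 60.7 ± 29.7, C1qc at 57.8 ± 22.3 and C3ar1 at 39.7 ± 17.9 RPKM, with Cfb at 11.9 ± 5.54, C5ar1 at 7.41 ± 0.478, C1qa at 5.77 ± 1.5 and C2 at 5.74 ± 1.22 RPKM below (SD, n = 3). C3ar1 in its lowest Nf1KO tumour (20.7 RPKM) still exceeded Cfb in its highest (18.1 RPKM), while neighbours above and below that step overlapped. The place of C1qa far below its partner chains held in every tumour, at 16.6 to 24.7 times less than C1qb in miR-155KONf1KO and 15.1 to 22.6 times less in Nf1KO. The reason was not tested, and the low row of C1qa is used here only for its difference between groups.

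Of 38 other complement genes listed, 26 were tested, of which 5 fell, 1 rose and 20 were not called by edgeR, with a median log2 fold change of -0.37. Over all tested genes, edgeR called 4.74% lower and 5.22% higher. The C1 protease gene C1s1 fell to 119 ± 9.27 CPM in miR-155KONf1KO, against 238 ± 47.3 CPM in Nf1KO (SD, n = 3 each; log2 fold change -1.01, SE 0.16, adjusted p = 0.0228). Its partner C1ra, the other C1 protease, was at 14.7 ± 4.70 CPM in miR-155KONf1KO and 22.8 ± 1.41 CPM in Nf1KO and did not pass (log2 fold change -0.63, SE 0.24, edgeR adjusted p = 0.152). Serping1, which encodes the C1 inhibitor, fell by 1.04 on the log2 scale (SE 0.24, edgeR adjusted p = 0.0402). C1s1, C1ra and Serping1 are known products of fibroblasts and related stromal cells, and the 10 fibroblast markers summed to 4980 to 6291 CPM in miR-155KONf1KO and 10196 to 10969 CPM in Nf1KO, with 3 called lower. The part of stromal cells in these values was not tested.

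Among the regulators, Cd55 alone was called higher. Cd55, which encodes decay-accelerating factor, a membrane protein that takes C3-splitting enzymes apart, was at 249.9, 226 and 342 CPM in MiRNC149, MiRNC640 and MiRNC670, against 69.7, 120.2 and 70.4 CPM in Nf803, Nf809 and Nf827. Every miR-155KONf1KO tumour was above every Nf1KO tumour, and Cd55 rose to 273 ± 61.3 CPM in miR-155KONf1KO, against 86.8 ± 28.9 CPM in Nf1KO (SD, n = 3 each; log2 fold change 1.65, SE 0.26, edgeR adjusted p = 0.0226). Across all tested genes 5.22% were called higher. The other membrane regulators were not called: the log2 fold change was 0.33 (SE 0.15) for Cd59a, which blocks the membrane attack complex, -0.21 (SE 0.14) for Cr1l, which encodes the rodent regulator Crry, and 0.27 (SE 0.22) for Cd46. Clu, which encodes clusterin, a soluble inhibitor of the terminal complex, was at 42.8 ± 5.51 CPM in miR-155KONf1KO and 30.7 ± 2.51 CPM in Nf1KO without overlap, and did not pass (log2 fold change 0.48, SE 0.16, edgeR adjusted p = 0.107). Neuron markers, 5 of 7 of which rose, were highest in the same tumours of each group as Cd55, with summed levels of 5899, 5169 and 8146 CPM in MiRNC149, MiRNC640 and MiRNC670, against 1329, 2416 and 1249 CPM in Nf803, Nf809 and Nf827. The 9 Schwann cell markers, 4 of which rose, had a median log2 fold change of 0.86, with summed levels of 4253, 5747 and 4733 CPM in MiRNC149, MiRNC640 and MiRNC670, against 2938, 2549 and 2522 CPM in Nf803, Nf809 and Nf827. Skeletal muscle markers were also highest in MiRNC670 (2080 CPM) and Nf809 (2241 CPM), with a median log2 fold change of -0.09 and none called. The part of any of these lists in the level of Cd55 was not tested. Cd55 has a close copy, Cd55b, and Cd59a has one in Cd59b, and an antisense gene overlaps 14.2% of the exon bases of Cd46 and another 18.4% of those of C1s1, which makes these counts uncertain.

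The integrin receptors for C3 fragments include 2 genes that fell. Itgam and Itgb2, which together encode complement receptor 3 of myeloid cells, fell by 2.44 (SE 0.31, edgeR adjusted p = 0.0186) and by 2.05 (SE 0.37, edgeR adjusted p = 0.0254) on the log2 scale. Itgax, the partner of Itgb2 in complement receptor 4, did not pass (log2 fold change -2.81, SE 0.76, edgeR adjusted p = 0.0605), nor did C5ar2, the other receptor for C5a (-1.53, SE 0.47, edgeR adjusted p = 0.0863). GENCODE annotates Gm49368 over 68.7% of the exon bases of Itgam, which makes that count uncertain. Cfp, which encodes properdin, the stabiliser of the alternative enzyme, was at 8.96 ± 1.02 CPM in miR-155KONf1KO and 15.4 ± 4.28 CPM in Nf1KO (SD, n = 3 each) and did not pass (edgeR adjusted p = 0.107). Of the terminal genes, C8b and C9 had no read in any tumour, C8a and C8g fell under the filter on low counts, and Hc, which encodes C5, was at 0.857 ± 0.856 CPM in miR-155KONf1KO and 1.09 ± 0.740 CPM in Nf1KO (SD, n = 3 each). C7 was at 19.8 ± 12.5 CPM in miR-155KONf1KO and 20.6 ± 14.4 CPM in Nf1KO, and C6 at 2.14 ± 2.51 CPM in miR-155KONf1KO and 5.51 ± 4.06 CPM in Nf1KO, and neither was called. Without MiRNC670, Nf803 or Nf827, edgeR called none of these genes and none of all tested genes (3240, 3335 and 3265 at an unadjusted p under 0.05), while DESeq2 called 1874, 1991 and 1939 genes, with 4 of the 9 complement genes among them each time. Without MiRNC640, edgeR called 2 of the other complement genes lower, Itgam among them, and the call of Cd55 was lost (adjusted p = 0.0525). Serping1 also lost its call without both MiRNC670 and Nf809 (edgeR adjusted p = 0.116) and with sex as a covariate (0.0622).

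**Figure D3:**
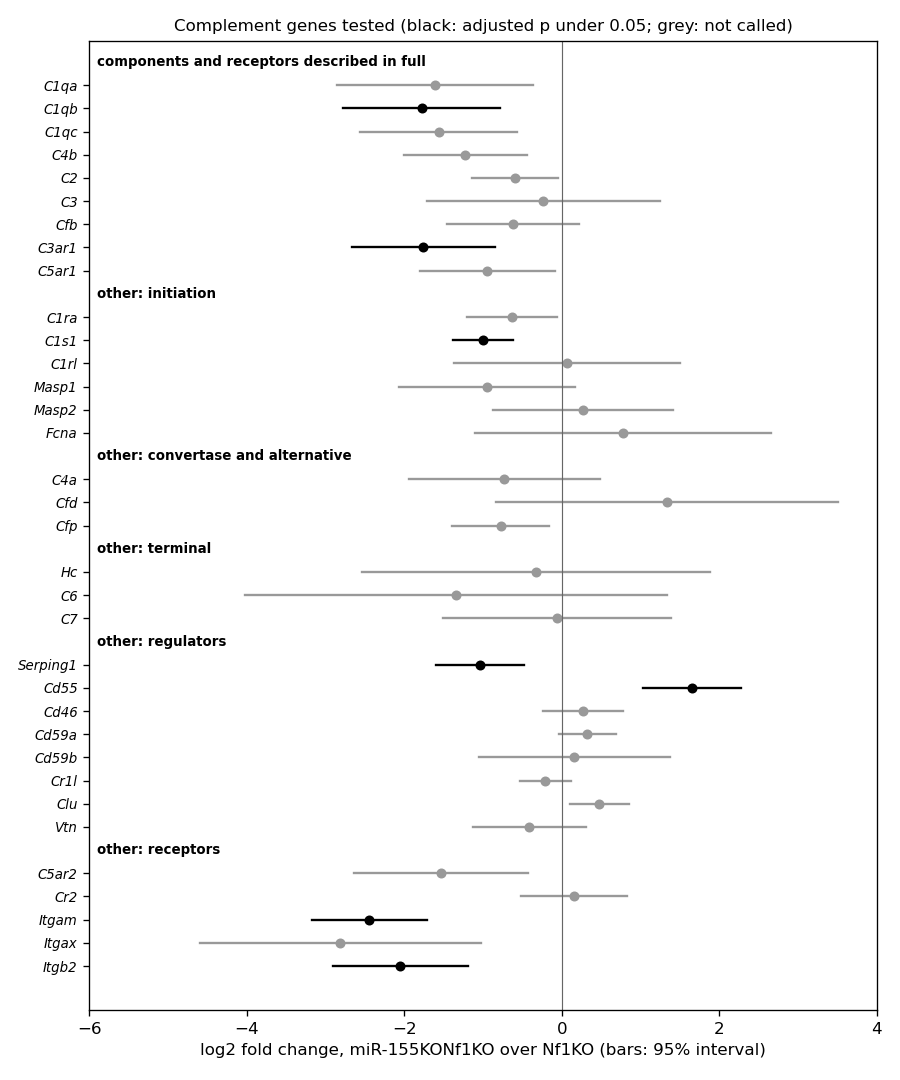
Log2 fold change of miR-155KONf1KO over Nf1KO for the 9 genes and 25 of the 26 other complement genes tested, with 95% intervals; black marks an edgeR adjusted p under 0.05 and grey the rest. Of the 9 genes, the intervals of C3 and Cfb include 0 and the other 7 lie below 0, and Cd55 stands alone above 0 among the called genes.

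The 9 genes differed in their profiles over the tumours. The root mean square difference of gene-centred log2 levels over the 6 tumours was 0.11 between C1qb and C1qc, 0.26 between C1qc and C4b and 0.29 between C1qb and C3ar1. C3 was 0.92 from Cfb, its nearest, and 1.5 from C1qa. Among all tested genes, the 5 nearest to the mean of the C1q chains by this measure were Hmha1, Ms4a7, Tyrobp, Ncf1 and Fcgr2b, at 0.07 to 0.13, of which Tyrobp is also in the macrophage list. The 5 nearest to C4b were Adap2, Il17ra, Hap1, Pycard and Arhgap22, at 0.11 to 0.17. The 5 nearest to C3 were Ffar2, Slc28a2, Lrrc36, Sigirr and Scrn2, at 0.25 to 0.33, and none of these was called by edgeR.

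**Figure D4:**
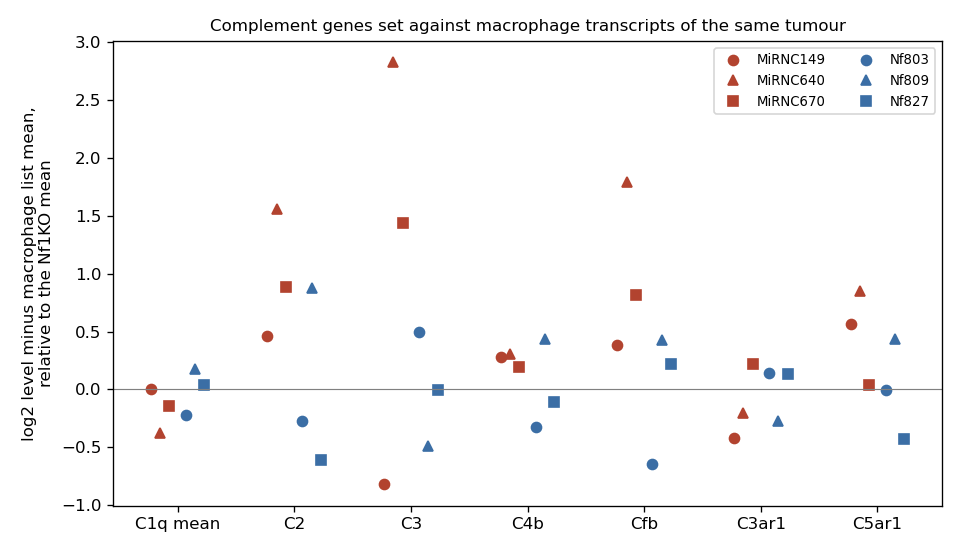
Log2 level of the mean C1q chains and of the 6 other genes minus the mean of 18 macrophage markers in the same tumour, with the Nf1KO mean set to 0; red symbols are miR-155KONf1KO tumours and blue symbols Nf1KO tumours. C1q and C3ar1 tumours of the groups intermingle, C4b differs by 0.26 between group means, and C3 spreads widest within miR-155KONf1KO.

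Relative to the macrophage list, C2 and Cfb were higher in miR-155KONf1KO by 0.97 and 1.0 on the log2 scale, and C3 by 1.15 (exact permutation test, two-sided, p = 0.2, 0.2 and 0.4; 0.467 each after adjustment over 7 comparisons). These 3 had lower means in CPM and higher means on this scale, on which the macrophage list, with its median log2 fold change of -1.66, is the base, and the groups overlapped for each of them. C2 was at -0.90, 0.20 and -0.48 log2 units from the list in MiRNC149, MiRNC640 and MiRNC670, against -1.63, -0.48 and -1.97 in Nf803, Nf809 and Nf827.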

How the data were processed

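RNA was measured in 6 mouse neurofibromas from RNeasy Plus Micro extracts and Nextera XT libraries, per the labels' protocols. The authors deposited 1 table of raw read counts per gene symbol, unscaled, and HISAT2 2.0.5, featureCounts 1.5.2 and mm10 were used per the submitters' processing notes. The sources used here do not give the annotation, strand or multi-mapping settings, which leaves overlapping genes and close copies uncertain. Groups came from the sample titles.

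Counts were tested with edgeR 4.0.16 in R 4.3.3 (quasi-likelihood, two-sided, filterByExpr, TMM, group only, Benjamini-Hochberg over 15604 genes, called under 0.05). CPM uses the TMM-scaled library, log2 CPM a prior count of 2, RPKM the exon union of GENCODE M21 (GRCm38, the same assembly as mm10). SEs and 95% intervals come from the quasi-likelihood F statistic. Replicate tumours differed by at least 23.2 times Poisson sampling variance, so no pair agreed within counting noise. The test was also run on simulated counts, with the same dispersion setting for every gene and no differences in tissue content. That setting is unlike these tumours and does not show how the test performs on them. The alternatives were DESeq2 1.42.0, limma 3.58.1 voom with quality weights, other scalings and filters, sex as a covariate (from Xist and Y-linked reads) and left-out tumours. Named genes are the 9 members, called complement genes, fixed regulators and the 5 nearest profiles; Itgax, C5ar2, Cd46, C6, C7, Mertk, Plin4, Csf3r and scarce terminal genes were named after their values were seen. One listed regulator is counted but not reported here. The members and lists were chosen with earlier results of these data known.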

Additional observations from a re-analysis of the deposited data

How the results depend on the processing

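The fall of C1qb and C3ar1 kept its direction in all 15 alternatives and its call in 10 and 11 of them. DESeq2 called 5 of the 9 complement genes lower and 2904 genes in all, limma voom with quality weights 6 and 2675, and edgeR without MiRNC670 and Nf809 called 1 and 1078. Leaving out 1 tumour gave 0 to 6 of the 9 lower, 0 to 8 other complement genes lower, 0 to 1 higher and 0 to 2242 genes in all. The log2 fold change of C3 ran from -1.04 to 0.20 over left-out tumours, reversed at 0.20 without MiRNC149, and C2 and Cfb were not called in any alternative. Against pan-leukocyte genes in place of the macrophage list, the difference became 0.42 for C1q, 0.85 for C4b, 0.46 for C3ar1 and 1.08 for C5ar1. The sign was thus reversed for C1q (-0.17 against the macrophage list) and C3ar1 (-0.13), and these differences depend on the reference list. On the gene's own strand, 1 of the 5 start windows held GAGGAA. A fit without 1 tumour had 5 samples, and the cause of these shifts was not tested. Scaling moved the median of all genes by less than 0.1 on the log2 scale. No paired analysis was possible because the tumour numbers are not shared between groups. Depth limits C1qa, with as few as 13 reads in 1 tumour.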

Other observations

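The ratio of C1qb to C1qc reads, noticed after the values were seen, was 0.974, 0.963 and 1.03 in MiRNC149, MiRNC640 and MiRNC670, against 1.13, 1.14 and 1.15 in Nf803, Nf809 and Nf827. The groups did not overlap (exact permutation test, two-sided, p = 0.1, the smallest that 3 against 3 allows), and the means were 0.987 ± 0.0334 in miR-155KONf1KO and 1.14 ± 0.0121 in Nf1KO (SD, n = 3 each). Because the ratio was picked with its values known, this p-value gives no support for a difference. Of single tested genes, 32.6% had groups that did not overlap. As a share of the reads of both chains, C1qb was 49.1% in MiRNC640 (95% exact binomial interval 45.2% to 52.9%, counting error only) and 53.6% in Nf827 (52.2% to 55.0%), and these intervals overlap. In MiRNC149 it was 49.3% (47.1% to 51.6%), an interval wholly below that of Nf827. That interval overlapped those of Nf803 (51.2% to 54.9%) and Nf809 (51.4% to 55.2%). The intervals of MiRNC640 and MiRNC670 overlapped those of all 3 Nf1KO tumours. The chains are assembled in equal numbers in the C1q protein.

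The ratio of C2 to Cfb reads, also noticed after the values were seen, was 0.735, 0.595 and 0.727 in MiRNC149, MiRNC640 and MiRNC670, against 0.903, 0.959 and 0.393 in Nf803, Nf809 and Nf827, and Nf827, which had the most Cfb, stood apart from its group.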
